A study of Drosophila melanogaster with 4 samples.

Results

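The genes described here encode the nuclear subunits of the 5 enzyme complexes of mitochondrial oxidative phosphorylation in Drosophila melanogaster, together with duplicate copies of such genes. They were chosen by symbol: a probe set had to match exactly 1 gene, and that gene's symbol had to begin with ND- (complex I), Sdh (complex II), UQCR- (complex III), COX and a digit (complex IV) or ATPsyn (complex V). The choice found 69 probe sets for 67 genes, of 10844 genes that the array measured with such probe sets. Where a gene had more than 1 probe set, the one with the highest mean intensity was used. By complex, 31 genes fell to complex I, 7 to complex II, 4 to complex III, 11 to complex IV and 14 to complex V. Their symbols divide them further into 49 genes for subunits, 17 duplicate copies and 1 gene for an assembly factor, Sdhaf3, which is no subunit although its symbol fits the choice. The choice of genes used no measured value, unlike the choice between probe sets of the same gene.

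RNA from whole adult flies was measured on 4 one-colour Affymetrix arrays, 1 sample per array, all of 1 baseline group. The flies had a standard diet as young larvae and food without yeast since early in their last larval instar until 4 days after emergence, and they were killed just before a refeeding experiment. The samples, here libraries 1 to 4, are labelled as hours -4, -3, -2 and -1, an order that the labels assign for a change-point analysis, so the libraries are treated as replicates without an order. The sources used here do not give the strain, the sex or the number of flies per sample, and nothing says whether the samples came from separate cultures, so each p-value measures only the spread between these 4 samples. Refed flies are not analysed here, and no contrast of diets is possible. In whole animals, fewer cells of a type and less RNA per cell cannot be told apart.

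Oxidative phosphorylation passes electrons from NADH through complex I, or from succinate through complex II, to ubiquinone, then through complex III and cytochrome c to complex IV, where oxygen is reduced. Complexes I, III and IV pump protons across the inner mitochondrial membrane, and complex V, the ATP synthase, lets them flow back to make ATP. In flies the flight muscle is the best known site of heavy use. Many of the nuclear genes also have a second copy in the fly genome, and such copies are known for expression in the testis. Roles given below are those of the fly proteins or of their mammalian and yeast counterparts.

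The arrays did not cover every gene of the family. RefSeq's table holds 91 genes whose symbols fit the choice. They include COX1, COX2 and COX3 of complex IV, which lie on the mitochondrial genome and had no probe set of their own. Among the others without one were SdhA, the flavoprotein of complex II, and UQCR-C1 and UQCR-C2, the core proteins of complex III. So were ND-24, ND-30 and ND-49, core subunits of complex I. All these genes were not analysed here. A further 4 probe sets matched such a gene together with another gene and were left out.

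Libraries 3 and 4 differed from libraries 1 and 2 in control transcripts. For control transcripts with probe sets at both ends, the 3' end exceeded the 5' end by a mean log2 of 1.44 and 1.40 for libraries 3 and 4. The same excess was 1.14 and 1.05 for libraries 1 and 2. The 9 hybridisation controls stood at 1.59 and 1.29 times library 1 in libraries 3 and 4, and at 0.927 times in library 2. The part of these differences in the results below was not tested. The 23 negative controls had medians from 46.1 to 48.7 over the libraries, and the highest single one reached 119 to 133. Of the 49 subunit genes, 47 lay above the highest negative control in every library, COX7C and ND-B8 being the exceptions.

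Subunit genes had a slightly higher median spread between the baseline libraries than the tested named genes, a difference that was not tested. Of the 67 members, 54 had a mean above the filter, an intensity of 92.5, and were tested: 48 of 49 subunit genes and 6 of 17 duplicate copies. The median coefficient of variation over the libraries was 6.46% for the 48 tested subunit genes, against 5.23% for the 6822 tested named genes. The median ratio of each gene's SD to the SD expected at its intensity was 1.02 for these subunit genes. It was 0.924 for the tested named genes, and a ratio of 1 means that both SDs are equal. The coefficient of variation lay under 5% for 16 of the 49 subunit genes and above 10% for 8 of them. The share of all genes past these bounds is not given here.

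No member passed a test. In the limma-based test for excess variance, 0 of 54 members passed at an adjusted p under 0.05, against 0.274% of all 8379 tested probe sets. At an unadjusted p under 0.05, 2 members were variable, UQCR-14 and ND-B12, against 5.53% of probe sets. Each library was also set against the mean of the other 3 in limma, which assumes that the lone library varies like the rest. For library 1, 0 members passed in either direction, against 0% of probe sets higher and 0% lower. For library 2, 0 members passed, against 0.0119% higher and 0.0955% lower. For library 3, 0 members passed, against 0.561% higher and 0.143% lower. For library 4, 0 members passed, against 0% higher and 0.0119% lower.

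Without adjustment, members with p under 0.05 in the same limma tests were mostly lower in library 4. There were 7 of them, ND-B17, ND-ASHI, ND-B18, ND-13A, ND-B12, ND-39 and ND-MWFE, all of complex I, against 5.79% of probe sets lower in that library. Library 3 had 3 lower members, UQCR-14, COX5B and ATPsynF, against 3.78% of probe sets. In library 2, 1 member was lower, the duplicate copy ATPsynCF6L, against 1.18%. There were 0 members higher in libraries 1, 2, 3 and 4, against 1.44%, 1.65%, 2.67% and 2.84% of probe sets, and 0 lower in library 1, against 0.609%.

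**Figure D1:**
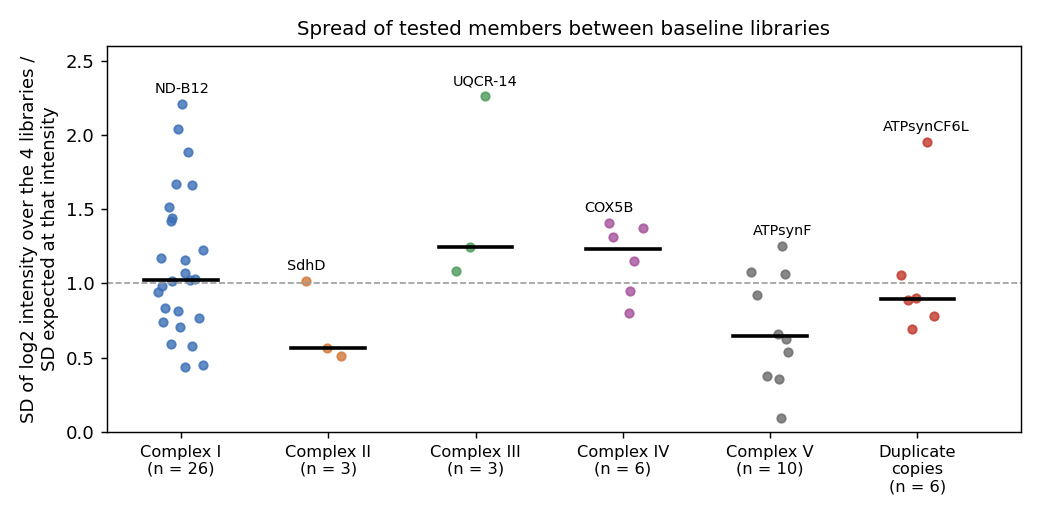
Each point is 1 tested gene, placed by the ratio of its SD of log2 intensity over the 4 libraries to the SD expected for probe sets of like intensity. Columns are the complexes and the duplicate copies, bars are medians, and the dashed line marks a ratio of 1. The medians of complexes II and V are 0.568 and 0.644, while UQCR-14 and ND-B12 reach 2.26 and 2.21.

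Complex I, the NADH dehydrogenase, had 26 subunit genes, all tested. Of its 7 core subunits with a nuclear gene, ND-75, ND-51 and ND-20 were measured. ND-51, the flavoprotein that takes up NADH, had intensities of 611, 586, 605 and 539 in libraries 1 to 4. ND-20, which carries an iron-sulfur cluster near the ubiquinone site, had 636, 652, 639.5 and 562. For both genes library 4 held the lowest value. ND-75, the large iron-sulfur subunit, varied more, with 581, 641, 508 and 509, so that libraries 3 and 4 lay together below the others.

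The widest spread in complex I was that of ND-39, an accessory subunit of the peripheral arm. Its intensity was 442 in library 4, against 598, 584 and 534 in libraries 1, 2 and 3. The log2 difference of library 4 from the mean of the others was -0.37 ± 0.10 (SE, 1 library against 3; limma adjusted p = 0.554). ND-B12, an accessory subunit of the membrane arm, had 175 in library 4, against 233, 214 and 211 in the others, a log2 difference of -0.33 ± 0.08 (limma adjusted p = 0.554). In both genes library 4 lay outside the range of the other libraries, but neither difference passed.

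At the other end, ND-B8, an accessory subunit of the peripheral arm, had the smallest spread of complex I, with 111, 115, 110.2 and 108. All of these values lie below the highest negative control. ND-B22, with the median spread, had 1043, 978, 983 and 892. ND-B14.5A stayed within 768, 754, 779 and 726, a coefficient of variation of 3.03%. ND-MNLL was measured by 2 probe sets, which ranged from 815 to 969 and from 787 to 852, each with its lowest value in library 4. Of the 26 genes, 6 had a coefficient of variation under 5% and 7 one above 10%. The median over the 26 was 6.56%, against 5.23% for the tested named genes.

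The subunit genes of complex I shared a low position in library 4. All 26 lay below the mean of the other libraries there, against 56.6% of the 6822 tested named genes. In 25 of the 26 the lowest value was in library 4, against 33.2%, ND-75 being the exception. Their log2 differences of library 4 from the other 3 ran from -0.05 for ND-B8 to -0.37 for ND-39. The median deviation from the genes' own means was 0.09, 0.04, -0.01 and -0.12 (log2) in libraries 1 to 4. No single gene of the complex passed the limma test in library 4.

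The same position was counted in the other complexes and among all genes. Over the 48 tested subunit genes, 40 were lowest in library 4 (83.3%), against 33.2% of the 6822 tested named genes. By complex the counts were 3 of 3 for complex II, 2 of 3 for complex III, 4 of 6 for complex IV and 6 of 10 for complex V. The median deviation in library 4 was -0.10 over the subunit genes and -0.01 over the tested named genes. Within the family it was -0.12 for complex I, -0.07 for complex II, -0.06 for complex III, -0.09 for complex IV and -0.03 for complex V. Whether these differences between complexes exceed chance was not tested.

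**Figure D2:**
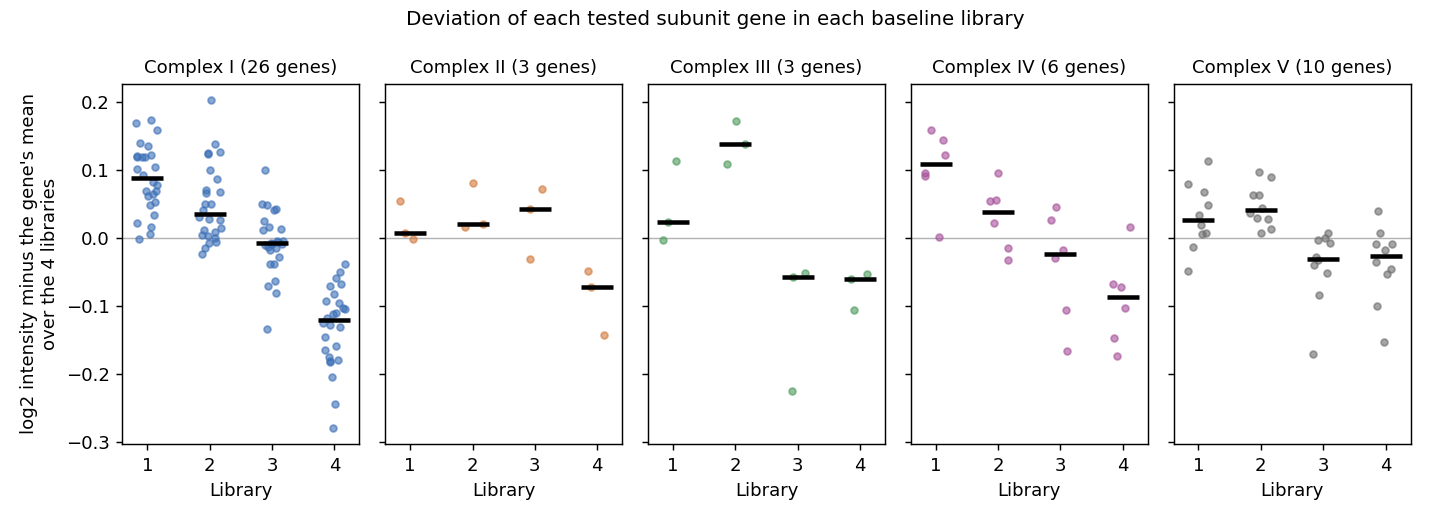
Each point is 1 tested subunit gene in 1 library (x axis, libraries 1 to 4, which are replicates), placed by its log2 intensity minus that gene's mean over the 4 libraries (y axis). Black bars are medians over the genes of a complex. All 26 complex I genes lie below 0 in library 4, with a median of -0.12, while the complex V genes lie around -0.03. Of all tested named genes, which are not drawn, 56.6% lie below 0 there.

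The size of this shift depended on how the arrays were scaled. After quantile normalization 27 of the 48 subunit genes were lowest in library 4, with a median deviation of -0.04, against 27.4% and 0.00 for the tested named genes. After cyclic loess, a setting chosen after seeing the data that removes differences between arrays that depend on intensity, the count was also 27, with a median of -0.05, against 27.6% and 0.00. For complex I the count was 19 of 26 after quantile normalization and 21 of 26 after cyclic loess, with medians of -0.07 in both. The median of complex V changed sign, to 0.00 and 0.01 with 3 and 2 of 10 genes lowest in library 4, and that of complex II changed sign after quantile normalization, to 0.01. With median centring the count was 39 of 48, against 40 of 48 with the values as deposited.

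**Figure D3:**
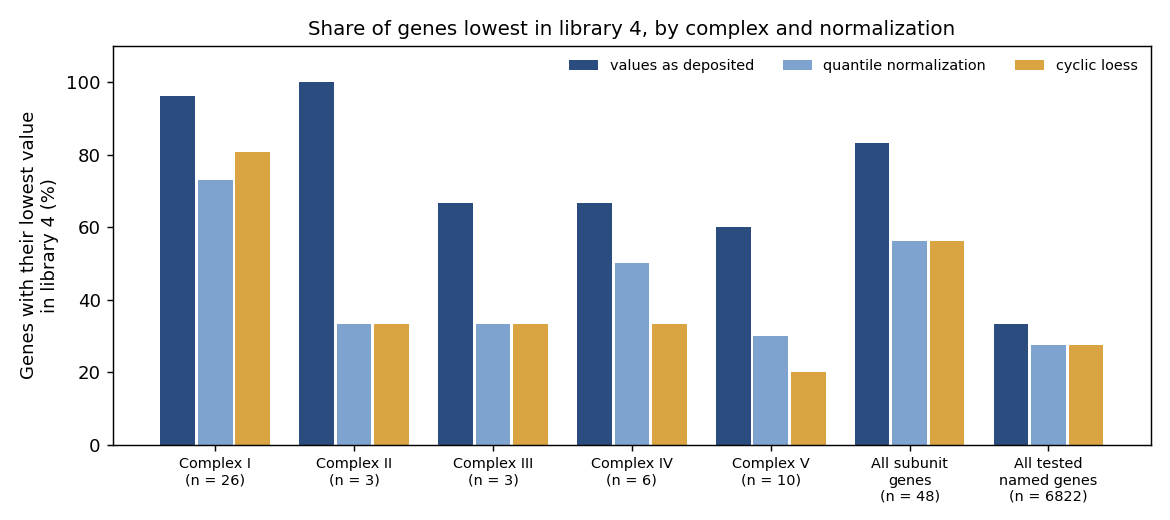
Bars give the share of tested genes whose lowest value over the 4 libraries was in library 4 (y axis, %), for the subunit genes of each complex, all subunit genes and all tested named genes. Colours are the values as deposited, quantile normalization and cyclic loess. After quantile normalization and cyclic loess the bars of complex I stand at 73.1% and 80.8%, against 27.4% and 27.6% for all tested named genes.

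Library 3 affected the tests for library 4. With library 3 left out, 5 members, all of complex I, were lower in library 4 than in libraries 1 and 2 at a limma adjusted p under 0.05, against 4.71% of probe sets lower and 1.29% higher. They were ND-39 (log2 difference -0.42 ± 0.08), ND-B12 (-0.35 ± 0.08), ND-ASHI (-0.33 ± 0.08), ND-B17 (-0.31 ± 0.08) and ND-15 (-0.30 ± 0.08), with SEs from 1 library against 2. ND-ASHI had 384 in library 4, against 476 and 487 in libraries 1 and 2. ND-B17 had 232, against 289 and 286, and ND-15 had 475, against 583 and 586. Their limma adjusted p ran from 0.00238 to 0.0274. Besides the prior, libraries 1 and 2 alone supply the spread for that comparison.

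Complex II, succinate dehydrogenase, links the citric acid cycle to the electron transport chain, and 3 of its subunit genes were measured. SdhB, the iron-sulfur subunit, had intensities of 842, 892, 825 and 816 in libraries 1 to 4, a coefficient of variation of 4.03%. SdhC, a membrane anchor subunit, had the smallest spread of the complex with 549, 554, 562 and 519. SdhD, the other membrane anchor, had 504, 491, 509.9 and 439.7, a coefficient of variation of 6.57%. All 3 were lowest in library 4, by log2 differences of -0.06, -0.10 and -0.19 from the other libraries, which did not pass in limma (adjusted p = 0.864, 0.749 and 0.572). Sdhaf3, an assembly factor for the iron-sulfur subunit, had 60.4, 64.0, 57.3 and 53.8, below the filter and within the range of the negative controls.

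Complex III, the cytochrome bc1 complex, was represented by 3 small subunits. UQCR-Q had 3219.99, 3479.9, 3115 and 3112, and UQCR-6.4 had 1496, 1619, 1414 and 1368. All 3 genes were highest in library 2, against 27.3% of the tested named genes. UQCR-14 had the largest ratio of SD to expected SD of the 54 tested members, 2.26 (adjusted p = 0.83 in the limma-based variability test). Its intensity was 183 in library 3, against 232, 241 and 205 in libraries 1, 2 and 4, a log2 difference of -0.30 ± 0.10 (SE, 1 library against 3; limma adjusted p = 0.552). Library 3 lay below all other libraries for this gene, without passing the test.

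Complex IV, cytochrome c oxidase, had 7 subunit genes, of which 6 were tested. COX4, which binds regulatory nucleotides in mammals, had the smallest spread of them at 2573, 2746, 2519 and 2451. COX5A, which lies next to it in the mammalian enzyme, had the largest, at 833, 729.7, 769.99 and 662. COX5B, the zinc-binding subunit, had 1499.5 in library 3, against 1798, 1746 and 1702 in libraries 1, 2 and 4. Its log2 difference was -0.22 ± 0.09 (SE, 1 library against 3; limma adjusted p = 0.709). With library 4 left out, COX5B (-0.24 ± 0.08) and UQCR-14 (-0.37 ± 0.08) were lower in library 3 than in libraries 1 and 2, with limma adjusted p of 0.0457 and 0.000806. Those 2 members stand against 4.01% of probe sets lower and 2.01% higher in that comparison.

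The remaining genes of complex IV were COX7A, COX7B, COX7C and COX8, all small subunits. COX7A had 879, 817, 840.4 and 768, and COX7B ranged between 1105 and 1351, each lowest in library 4 and highest in library 1. COX8 ranged from 1091 in library 3 to 1278 in library 1. COX7C had 50.9, 59.3, 63.8 and 59.1, below the filter and within the range of the negative controls.

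Complex V, the ATP synthase, had 10 subunit genes, and 7 of them had a coefficient of variation under 5%. Their median was 3.72%, against 5.23% for the tested named genes. ATPsynB, the b subunit of the stalk that holds the catalytic head still, had the smallest spread of the 54 tested members: 1498, 1499.7, 1488 and 1482, a coefficient of variation of 0.550%. ATPsynD, another part of that stalk, had 2421, 2458, 2409.6 and 2350.2, and ATPsynE, a membrane subunit, had 2638, 2654, 2553 and 2571. ATPsyngamma, the rotor shaft, had 1534, 1545, 1465 and 1452. In these 4 genes the highest value exceeded the lowest by a factor of 1.01 to 1.06.

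ATPsynO, which joins the stalk to the head, had 1484, 1407, 1323 and 1279.9, and ATPsynCF6, also of the stalk, had 1324, 1264, 1219 and 1208. In both, libraries 1 and 2 lay above libraries 3 and 4. ATPsyndelta, of the central stalk, was lowest in library 4, at 676 against 777, 803 and 755. ATPsynF, a membrane subunit, was instead lowest in library 3, at 1097 against 1293, 1289 and 1268, a log2 difference of -0.23 ± 0.10 (SE, 1 library against 3; limma adjusted p = 0.732).

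ATPsynC, the subunit of the proton-carrying ring, had 2394, 2587, 2463 and 2461 on the probe set used here. Its second probe set disagreed in pattern, with 89.6, 98.8, 105 and 111, and all of these values lay below the highest negative control. ATPsynbeta, the catalytic subunit, had 157, 169, 149.7 and 159.6, only a little above the highest negative control of 119 to 133.

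The 17 duplicate copies mostly lay near background, and their highest value was often in library 3. Of the 17, 8 lay above the floor of 57.1 in every library, 6 passed the filter, and 5 had no value above the floor. Their highest value was in library 3 for 9 of 17 copies (52.9%), against 26.1% of all 10844 named genes and 31.8% of the 4022 named genes below the filter. For the 49 subunit genes the count was 5 of 49 (10.2%). The difference between copies and subunit genes was not tested.

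Among the copies below the filter, COX4L had the widest range, with 103 in library 3, against 55.9, 60.1 and 68.2 in libraries 1, 2 and 4. COX4 itself had 2519 in library 3, against 2573, 2746 and 2451, so library 3 was not its peak. SdhBL had 69.0 in library 3, against 51.0, 56.2 and 55.4, and ATPsynGL had 65.3, against 47.7, 49.3 and 46.0. Outside library 3 all values of SdhBL and ATPsynGL lay under the floor. With no filter, SdhBL and ATPsynGL were the 2 members that passed as higher in library 3 in limma, against 0.917% of probe sets higher and 0.00716% lower. For these copies the floor sets the other 3 libraries to 1 value, so the spread is 0 by construction and the call says nothing of the replicate error.

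SdhAL, SdhCL and UQCR-14L were highest in library 3 too, but no value of theirs was above the floor. SdhAL had 36.8 in library 3, against 31.3, 32.1 and 31.5, SdhCL had 33.9, against 26.2, 25.1 and 27.1, and UQCR-14L had 44.9, against 41.9, 42.1 and 43.6. ND-51L2, with 62.1 in library 3 against 59.0, 53.0 and 58.9, differed by little. Copies without a peak in library 3 included ND-24L (73.3, 70.5, 71.3 and 71.7 in libraries 1 to 4) and COX5BL (69.9, 69.1, 80.6 and 81.5). COX6AL2 had 54.5, 45.3, 45.4 and 49.0, and COX7AL had 23.2, 32.0, 30.6 and 19.8, all under the floor.

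Among the 6 tested copies, values were closer together. ND-20L had 243 in library 3, against 226, 219.9 and 236 in libraries 1, 2 and 4, and ND-B14.5AL had 172, against 162, 154 and 157. The others peaked elsewhere. ND-51L1 had 134, 131, 130.1 and 142 in libraries 1 to 4, ATPsynbetaL had 283, 297, 270.2 and 312, and ATPsynepsilonL had 164, 152, 158 and 147. ATPsynCF6L had 100.1 in library 2, against 131, 120.3 and 117 in libraries 1, 3 and 4, a log2 difference of -0.29 ± 0.10 (SE, 1 library against 3; limma adjusted p = 0.999).

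For 12 of the 17 copies the gene they duplicate was itself a measured member. Of these pairs, 3 lie on the same chromosome in RefSeq's table, with 1 protein-coding gene between COX5B and COX5BL, 2 between COX7A and COX7AL and 15 between SdhC and SdhCL. How far a copy's probe set also binds RNA of the original was not tested, since no probe sequences were used.

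**Figure D4:**
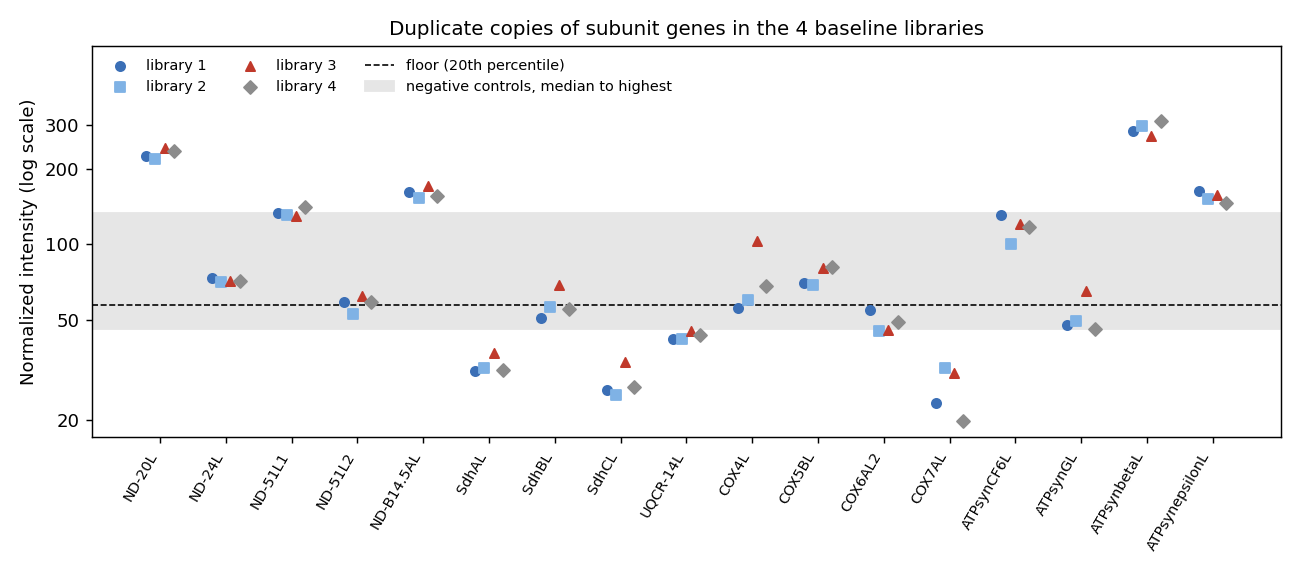
Points give the normalized intensity (y axis, log scale) of the 17 duplicate copies (x axis) in libraries 1 to 4. The dashed line is the floor of 57.1, and the grey band runs from the lowest library median of the negative controls, 46.1, to their highest single value, 133. COX4L, SdhBL and ATPsynGL stand out in library 3 at 103, 69.0 and 65.3, inside the band.

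Testis and male accessory gland markers were also high in library 3. Of 18 testis markers, 16 were measured, and their summed intensity was 4610.1 in library 3, against 2769.6, 2807 and 2780.3 in libraries 1, 2 and 4. Of these 16 markers, 13 had their highest value in library 3, against 26.1% of all named genes. In limma, 7 of the 11 tested passed as higher there, against 0.561% of probe sets. One of the 7, betaTub85D (142 in library 3, against 95.3, 86.4 and 78.2 in libraries 1, 2 and 4), passed the filter of 92.5 only through library 3, so its call is no support. The testis genes fzo (34.7) and can (20.3) lay below the floor in library 3 as in the others. Another, sa, was lowest in library 3, at 150.1 against 151.7, 154.7 and 152.8 in libraries 1, 2 and 4. All 9 measured accessory gland genes of 10 listed were highest in library 3, against 26.1% of all named genes. Their sum was 1794 there, against 465, 451 and 490.1 in the other libraries. Acp26Aa, Acp26Ab and Acp29AB lay below the floor in every library, and Acp29AB had 51.74 in library 3 against 51.73 in library 1. The largest values in library 3 were those of Mst57Da (662), Acp95EF (416) and Acp36DE (222). The part of male tissue in the copies' values was not tested.

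Other genes of respiration gave the context for these values. The list of subunits whose symbols begin otherwise held 9 genes, of which 7 were measured and all 7 tested, and 0 passed in any library in limma. At an unadjusted p under 0.05, 3 were lower in library 4, against 5.79% of probe sets: blw, Cyt-c1 and sun. They include blw, the alpha subunit of ATP synthase, with 3227 in library 4, against 3789.6, 3734 and 3496 in libraries 1, 2 and 3. Cyt-c1, the cytochrome of complex III, had 961 in library 4, against 1178, 1146 and 1080.3. Of these 7 genes, 6 were lowest in library 4, against 33.2% of the tested named genes, with a median deviation of -0.14 there, and sun, the epsilon subunit of ATP synthase, had 253 against 339, 302 and 316. After quantile normalization and cyclic loess 6 and 5 of the 7 were lowest in library 4, against 27.4% and 27.6% of the tested named genes.

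The citric acid cycle feeds electrons to complexes I and II, and genes listed with it, Idh among them, were also measured. Of 12 listed genes 9 were measured and tested, and 0 passed in limma in any library, adjusted or not. Of the 9, 6 were lowest in library 4, against 33.2% of the tested named genes, with a median deviation of -0.07. After quantile normalization 2 and after cyclic loess 4 of the 9 were lowest there, against 27.4% and 27.6%. The medians were -0.03 in both. The aconitase gene mAcon1 had 1413 in library 4, against 1732, 1489.98 and 1614 in libraries 1, 2 and 3. Of 15 mitochondrial regulators and carriers, 12 were measured and 10 tested, and 0 passed in limma. At an unadjusted limma p under 0.05, Ant2 was lower in library 1, against 0.609% of probe sets. Ant2 and Ucp4C were higher in library 3, against 2.67%. In library 4, PolG1 was higher, against 2.84%, and Mpcp1 lower, against 5.79%. Of the 10, 3 were lowest in library 4, against 33.2% of the tested named genes, with a median deviation of -0.03. That median turned to 0.01 after cyclic loess. The adenine nucleotide carrier gene sesB had 4108, 3900.4, 4192 and 3966 in libraries 1 to 4, and Mpcp2, a phosphate carrier gene, had 1608, 1582, 1593 and 1606. The mitochondrial transcription factor gene TFAM had 415, 401, 385 and 385.

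Of 8 assembly factors listed, 5 were measured and 3 tested, and 0 passed in limma. Bcs1 was lower in library 3 at an unadjusted limma p under 0.05, against 3.78% of probe sets. CIA30, needed for complex I assembly, had 132, 130.3, 132 and 132 in libraries 1 to 4. Of 12 genes listed for flight muscle, 10 were measured and 9 tested, and 0 passed in limma. At an unadjusted limma p under 0.05, fln was higher in library 2, against 1.65% of probe sets, and lower in library 3, against 3.78%. Of the 9, 4 were lowest in library 4, against 33.2% of the tested named genes, with a median deviation of -0.07. After quantile normalization and cyclic loess alike, 2 of the 9 were lowest there, against 27.4% and 27.6%. The medians were then -0.01 and -0.02. In library 4, 7 of the 9 lay below the mean of the other libraries, against 56.6% of the tested named genes. Only 1 had its highest value there, against 24.4%. That gene was Act88F, the flight muscle actin gene, at 791 against 733, 632 and 653.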

How the data were processed

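The authors deposited 1 normalized intensity per probe set and sample on a linear scale, normalized with dChip through an invariant set of probes, per the labels. The sources used here name no dChip version, background model or detection call. The table held 14010 probe sets. The 44 control probe sets were kept out of the tests. Of the other 13966, 12443 matched 1 gene, 327 several and 1196 none in the platform annotation. For 12394 the symbol was taken, through the gene identifier, from NCBI RefSeq's Release 6 plus ISO1 MT table. No coordinates or sequences are given.

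Values below the 20th percentile (57.1) were set to that floor before taking log2. The 8379 probe sets whose mean exceeded the 40th percentile were tested over the 4 libraries with limma 3.58.1 (R 4.3.3, statmod 1.5.0): the variance against the prior variance at like intensity (squeezeVar, robust, trended, F test), and each library against the other 3 (eBayes, robust, trended, two-sided), with Benjamini-Hochberg adjustment over all tested probe sets and a threshold of 0.05. Means, coefficients of variation and deviations use the deposited values without the floor. The SDs set against an expected SD are those of the floored log2 values. Levels were set only against negative controls and the floor, not between genes. The number of arrays limits the precision. The tests were tried on simulated data.

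Values in all libraries are printed for complex II, duplicate copies and their originals, core subunits, members past a test, and the largest, median and smallest SD per complex. Further members, among them ATPsynD, ATPsynE, ATPsyndelta and ATPsynF, were picked once their values were known. The members and lists were chosen with earlier results of these data known.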

Additional observations from a re-analysis of the deposited data

Results flagged for a closer look

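Dixon's ratio passed its 95% critical value for 4 samples and marked 1 library as far from the other 3 for 3 of 67 members, or 4.48%, and chance gives about 5%. ATPsynF was lowest in library 3, at 1097 against 1268 to 1293. ATPsynGL was highest in library 3, at 65.3 against 46.0 to 49.3, and SdhAL at 36.8 against 31.3 to 32.1. Of these, ATPsynGL was above the floor of 57.1 only in library 3 and SdhAL in none.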

How the results depend on the processing

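The count of members past the variability test stayed at 0 under all 14 alternatives, and so did the counts for libraries 1 and 2 wherever they could be computed. The count for library 3 was 2 with no filter, where the floor fixes the other libraries, and 0 to 2 when replicates were left out in turn, being 2 without replicate 4. The count for library 4 was 0 to 5, being 5 without replicate 3. The median deviation of the subunit genes in library 4 lay between -0.11 and -0.04 over these alternatives, with the smallest size after quantile normalization, and the number lowest there between 27 and 46, at 27 after quantile normalization and after cyclic loess. Their median in library 3, -0.01, became 0.01 after quantile normalization, 0.0029 after cyclic loess, 0.0028 without replicate 1 and -0.05 without replicate 4. The cause was not tested. Among named members, 15 values of library 3 against the others moved by more than the SD between libraries after flooring, mainly of copies under the floor. For copies with no value above the floor that SD is 0 by construction, so any change counted as a move. None of these members was called with all 4 libraries and the filter, and after quantile normalization the values of ATPsynB, ATPsynCF6 and ATPsyngamma turned from below 0 to 0.03, 0.02 and 0.0079. No paired analysis was possible because there is only 1 group.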
